A study of Mus musculus with 6 samples.

Results

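Complement and coagulation factors are the secreted proteins, most of them made by hepatocytes, that attack microbes in blood and that form and dissolve clots. The set listed 42 mouse genes. A gene counted as measured when a probe of its symbol had a detection p-value under 0.01 on at least 2 of the 6 arrays, and its brightest probe stood for it. By that rule 38 of the 42 genes were measured, among 8561 genes in all, and each of the 38 was detected on all 6 arrays. The fibrinogen gene Fgb had 1 probe that was detected on no array, and C3, Cfd and Cpb2 had no probe of that symbol in the platform table used here and were not analysed.

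The arrays were Illumina bead arrays of liver RNA from C57BL/6J mice aged 18 weeks, kept under a light and dark cycle with free access to food. In the NOB arm, mice on a high-fat diet received nobiletin, a polymethoxylated flavone from citrus peel, as an oral dose of 200 mg/kg on alternate days. In the HFD arm mice ate the same kind of diet and received vehicle, and in the RC arm the labels give chow and vehicle. Treatment lasted 10 weeks on the high-fat diet, with no separate length given for chow, and livers were taken at zeitgeber time ZT14 (2 hours after lights off) or ZT2 (2 hours after lights on). Every array held RNA pooled from 4 mice, with 1 array for each arm and time, so the spread between mice was not measured. The fits used the 2 times of an arm as its 2 arrays. Their p-values measure the spread between pools together with any arm difference that depends on time, and not the spread between mice. The labels used here name neither the sex of the mice nor the composition of the diets. In whole liver, fewer cells of a type and less RNA per cell cannot be told apart.

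In the complement cascade, the classical, lectin and alternative routes each build an enzyme that cleaves C3, and then C5, and the terminal components C5b, C6, C7, C8 and C9 assemble into a pore in the target membrane. In coagulation, tissue factor with factor VII and the contact system with factor XI lead through factor X to thrombin, which turns fibrinogen into fibrin. Inhibitors of the serpin family restrain both cascades, and plasmin dissolves the clot.

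The promoters of 5 of the 6 members that changed with diet are printed here, because those genes carry the main difference. The sixth, C2, had no promoter in the table used. Any window that the table placed on a chromosome other than those given here was not printed, but stayed in the counts over member promoters. Each window runs from 250 bases before to 50 bases after the gene's start in RefSeq, on build GRCm38.p6, and is written 5′ to 3′ on the gene's own strand. C6 lies at chr15:4726960-4727259 (plus strand), C8a at chr4:104876349-104876648 (minus), C8b at chr4:104766067-104766366 (plus), F7 at chr8:13025784-13026083 (plus) and F11 at chr8:45261982-45262281 (minus). Capitals mark letters of a searched motif, read on either strand.
C6: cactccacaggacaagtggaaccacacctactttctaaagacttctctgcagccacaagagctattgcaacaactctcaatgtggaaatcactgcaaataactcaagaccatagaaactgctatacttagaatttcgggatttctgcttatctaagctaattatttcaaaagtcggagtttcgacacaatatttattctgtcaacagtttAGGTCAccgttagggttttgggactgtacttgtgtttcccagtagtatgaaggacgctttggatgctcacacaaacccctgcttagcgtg
C8a: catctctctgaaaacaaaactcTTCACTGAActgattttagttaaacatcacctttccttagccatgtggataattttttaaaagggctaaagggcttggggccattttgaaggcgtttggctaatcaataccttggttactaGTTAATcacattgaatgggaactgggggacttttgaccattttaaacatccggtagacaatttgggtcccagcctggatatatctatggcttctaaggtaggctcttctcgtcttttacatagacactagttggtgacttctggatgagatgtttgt
C8b: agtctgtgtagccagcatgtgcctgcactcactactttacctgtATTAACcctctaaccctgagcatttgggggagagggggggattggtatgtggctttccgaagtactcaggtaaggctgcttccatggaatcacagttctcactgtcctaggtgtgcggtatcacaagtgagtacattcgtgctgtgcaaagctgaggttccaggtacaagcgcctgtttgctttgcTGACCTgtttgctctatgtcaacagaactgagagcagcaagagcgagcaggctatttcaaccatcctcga
F7: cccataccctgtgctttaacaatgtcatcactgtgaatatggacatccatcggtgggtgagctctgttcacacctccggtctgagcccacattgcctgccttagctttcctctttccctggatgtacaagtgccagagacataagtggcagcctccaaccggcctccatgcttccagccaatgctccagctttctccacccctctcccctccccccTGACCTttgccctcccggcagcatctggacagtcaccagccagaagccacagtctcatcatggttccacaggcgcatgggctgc
F11: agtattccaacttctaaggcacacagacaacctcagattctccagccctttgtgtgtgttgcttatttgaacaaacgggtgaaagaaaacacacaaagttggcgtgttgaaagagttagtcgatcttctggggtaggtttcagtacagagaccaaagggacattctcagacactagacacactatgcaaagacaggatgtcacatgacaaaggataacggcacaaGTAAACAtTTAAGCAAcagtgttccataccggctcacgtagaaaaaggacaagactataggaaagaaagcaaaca

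The motifs searched on both strands were TTCNNNGAA (known for STAT factors), TTNNGCAA and its special case TTGCGCAA (C/EBP), TGTTTAC (FOXA), GTTAAT (part of the HNF1 site), CAAAGTCCA (HNF4), CACGTG (the E-box) and AGGTCA (the core of many nuclear receptor sites). AGGTCA stood in the windows of C6, C8b and F7, and in 12 of the 29 promoters of 28 measured members (41.4%), against 16.3% of all 32851 promoters in the table. GTTAAT stood in the windows of C8a and C8b, and in 10 of the 29 member promoters (34.5%), against 7.1% of all promoters. The C8a window also held TTCNNNGAA, found in 6 member promoters (20.7%) against 8.3% of all, and the F11 window held TTNNGCAA, found in 6 (20.7%) against 10.8%. TGTTTAC stood in the F11 window and in 2 member promoters (6.9%), against 3.65% of all. CACGTG, CAAAGTCCA and TTGCGCAA stood in none of the 29, against 7.15%, 0.475% and 0.183% of all promoters. A match is a run of letters only, and a missing match says only that these letters are not in this window.

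Levels are log2 of the background-corrected, quantile-normalized intensity, on which 1 unit is a 2-fold difference. The arrays were alike in depth: 28.1% to 32% of probes were detected, raw medians lay between 57.5 and 62.4, and the correlation between arrays across genes was 0.960 to 0.987. Fga, Kng1 and Vtn lay within 1 log2 unit of the highest level on any array (14.60), where bead signals can be compressed, so their differences may be understated; 62 of all genes (0.724%) did. The hepatocyte markers Ttr, Apoa1 and Cyp2e1 also lay there, while the Alb probe, detected on 4 arrays, lay between 4.77 and 5.39, and Tat was not measured.

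On the high-fat diet with vehicle, liver RNA of 6 complement and coagulation genes fell relative to chow and none rose. Of the 6, 3 encode parts of the membrane attack complex (C8b, C6 and C8a), 1 encodes the complement protease C2, and 2 encode the clotting proteases factor VII (F7) and factor XI (F11). C8b was 6.63-fold lower and C6 3.12-fold lower in HFD, and the other 4 were 1.74-fold to 2.13-fold lower. The 6 of 38 members (15.8%) that passed a limma fit at a Benjamini-Hochberg adjusted p under 0.05 stood against 2.34% of all genes lower and 4.49% higher in the same fit, 6.82% in all. At an unadjusted p under 0.05 there were 14 members, against 24.2% of all genes. Without the quantile step, with arrays scaled on their medians, the median of all genes moved to 0.25 and the calls over all genes were 1477 higher and 131 lower, in place of 384 higher and 200 lower; the 6 members stayed lower and past the threshold there, and Masp1 became higher.

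C8b encodes the beta chain of C8, the component that follows C7 into the assembling complex. Its log2 level was 9.47 at ZT14 and 10.35 at ZT2 in NOB, 8.61 and 9.47 in HFD, and 11.80 and 11.74 in RC. In raw intensity, before any correction, these were 781 and 1440.0 in NOB, 444 and 847 in HFD, and 3236 and 3147 in RC. Both RC pools stood far above the other 4, and the lowest of all was the HFD pool at ZT14. The fitted difference of HFD from RC was -2.73 ± 0.25 (log2 ± SE, adjusted p = 0.00375), which ranked 24 by size among the 8561 genes.

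C6 encodes the component that binds C5b and stabilises it. Its level was 8.77 at ZT14 and 9.16 at ZT2 in NOB, 8.82 and 9.46 in HFD, and 10.96 and 10.60 in RC. The 2 RC pools were again the highest, with NOB and HFD overlapping. The fitted difference of HFD from RC was -1.64 ± 0.24 (adjusted p = 0.0160). C8a encodes the alpha chain of C8, which enters the membrane. It read 8.71 at ZT14 and 8.73 at ZT2 in NOB, 8.54 and 8.60 in HFD, and 9.49 and 9.53 in RC. Times differed little within an arm, and HFD lay -0.94 ± 0.14 from RC (adjusted p = 0.0160). In the RefSeq gene order C8a and C8b are neighbours on chromosome 4, on opposite strands.

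The third chain of C8, the small lipocalin C8g, was not among the genes that fell. Its level was 13.18 at ZT14 and 13.32 at ZT2 in NOB, 13.04 and 12.93 in HFD, and 12.75 and 12.88 in RC. The 4 high-fat pools all stood above the 2 RC pools, and the difference of HFD from RC was 0.18 ± 0.15 (adjusted p = 0.519), short of the threshold. C9, which polymerises into the pore, read 10.68 at ZT14 and 11.67 at ZT2 in NOB, 11.35 and 11.63 in HFD, and 12.12 at both times in RC. All 4 high-fat pools were below RC, with -0.63 ± 0.24 for HFD (adjusted p = 0.168), and a second detected probe of C9 gave -0.83. Hc, the mouse gene for C5, read 10.54 and 10.53 in NOB, 10.34 and 10.56 in HFD, and 10.97 and 11.07 in RC at ZT14 and ZT2, a difference of -0.57 ± 0.15 between HFD and RC (adjusted p = 0.0677). It passed as lower in 3 of the 15 alternative settings of the processing. Across the 6 terminal components the median difference was -0.78, against a median of -0.0038 over all genes. By the test 3 of them were lower (2.34% of all genes were) and none higher (4.49%).

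**Figure D1:**
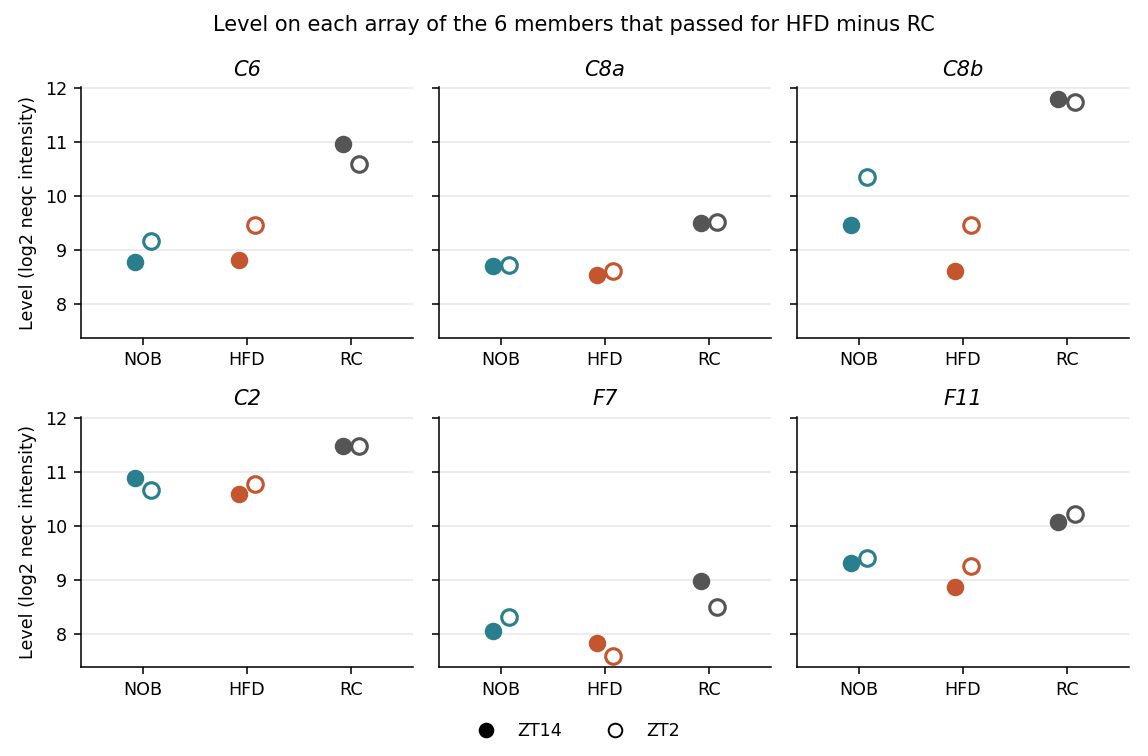
Log2 level on each array of the 6 members that differed between HFD and RC, 1 panel a gene, with NOB, HFD and RC along the horizontal axis; filled points are ZT14 and open points ZT2, each 1 pool of 4 mice. In every panel both HFD points lie below both RC points, by most in C8b.

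Among the genes that start or restrain the classical and lectin routes, 1 of 8 measured fell, where 2.34% of all genes were called lower. C2, the protease of the enzyme that cleaves C3, read 10.88 at ZT14 and 10.66 at ZT2 in NOB, 10.59 and 10.77 in HFD, and 11.47 at both times in RC. The 2 RC pools lay above the other 4, and HFD lay -0.80 ± 0.16 from RC (adjusted p = 0.0353). Its neighbour on chromosome 17 in RefSeq, Cfb, which plays the same role in the alternative route, read 10.11 and 9.70 in NOB, 9.83 and 9.70 in HFD, and 9.79 and 10.37 in RC at ZT14 and ZT2. Those pools overlapped, with -0.32 ± 0.24 between HFD and RC (adjusted p = 0.466). The other partner of C2 in that enzyme, C4b, differed the other way, with 11.94 and 12.01 in NOB, 12.08 and 12.30 in HFD, and 11.92 and 11.68 in RC. Its 0.39 ± 0.16 did not pass (adjusted p = 0.207), and its less bright detected probes gave 0.17 and 0.0087.

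The recognition lectins Mbl1 and Mbl2 differed by -0.12 ± 0.14 and 0.05 ± 0.15 between HFD and RC, and the lectin-route protease Masp2 by -0.16 ± 0.16. Masp1, the other protease of that route, read 10.09 at ZT14 and 10.04 at ZT2 in NOB, 10.39 and 10.47 in HFD, and 9.88 and 10.05 in RC. HFD was above both other arms at each time, by 0.46 ± 0.14 over RC (adjusted p = 0.108). A second detected probe of Masp1 gave -0.53, and the mean of its probes -0.03, so the sign for Masp1 rested on the probe. C4bp, which helps to inactivate C4b, and Serping1, which inhibits the starting proteases, differed by 0.22 ± 0.15 and -0.20 ± 0.15. In the alternative route Cfi, which cleaves C3b, differed by -0.05 ± 0.14. Properdin (Cfp), which stabilises the alternative enzyme and is made largely by leukocytes, read 10.63 and 9.92 in NOB, 10.31 and 10.10 in HFD, and 9.49 and 10.03 in RC; the 2 RC pools alone spanned 0.53, and 0.45 ± 0.28 between HFD and RC did not pass (adjusted p = 0.376).

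Among the 7 measured vitamin K dependent factors 1 fell, and among the 5 cofactors and contact factors 1 fell. Of all genes 2.34% were called lower in that fit. F7 encodes factor VII, which starts coagulation with tissue factor. Its level was 8.04 at ZT14 and 8.30 at ZT2 in NOB, 7.82 and 7.58 in HFD, and 8.97 and 8.50 in RC. The 3 arms did not overlap, with HFD lowest, and HFD lay -1.03 ± 0.20 from RC (adjusted p = 0.0334). F11 encodes factor XI, the protease that activates factor IX. It read 9.31 at ZT14 and 9.40 at ZT2 in NOB, 8.86 and 9.25 in HFD, and 10.08 and 10.21 in RC. The arms again did not overlap, and HFD lay -1.09 ± 0.15 from RC (adjusted p = 0.0125).

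Both genes lie on chromosome 8 beside other members in RefSeq. F10 and Proz follow F7; F10, the enzyme that makes thrombin, read 11.96 and 12.08 in NOB, 11.97 and 11.70 in HFD, and 12.31 and 12.32 in RC at ZT14 and ZT2, a difference of -0.48 ± 0.16 (adjusted p = 0.122). Proz, a cofactor for the inhibition of factor X, differed by -0.40 ± 0.16 (adjusted p = 0.200). Klkb1, the contact-system prekallikrein next to F11, differed by -0.34 ± 0.17 (adjusted p = 0.261). None of these neighbours passed the test.

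The genes of fibrin itself differed less between HFD and RC: prothrombin (F2) by -0.13 ± 0.14, the fibrinogen chains Fga and Fgg by -0.26 ± 0.16 and -0.19 ± 0.15, and the factor XIII carrier subunit F13b by -0.18 ± 0.15. Fga lay near the top of the scale, so its difference may be understated. F9 (factor IX), F5 (the cofactor of factor X) and F12 (which starts the contact route) differed by 0.07 ± 0.15, 0.22 ± 0.17 and -0.10 ± 0.16. The anticoagulants Proc, Pros1, Serpinc1 (antithrombin), Serpind1 (heparin cofactor II) and Serpina10 (the protein Z dependent inhibitor) all lay below RC by the fit, between -0.25 and -0.04, none past the threshold. Among the genes of clot removal, plasminogen (Plg) differed by -0.44 ± 0.15 (adjusted p = 0.144), its inhibitor Serpinf2 by -0.39 ± 0.15 (adjusted p = 0.166) and vitronectin (Vtn) by -0.38 ± 0.15 (adjusted p = 0.184). The same limit near the top of the scale holds for Vtn.

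Across all 38 members, 30 fitted differences of HFD from RC were below 0 (78.9%), against 50.4% of all genes, and their median was -0.22. With median scaling 22 lay below 0, against 19.5% of genes, and the median was -0.07, where that of all genes was 0.25. Both HFD pools lay below both RC pools in 21 members (55.3%, against 25.2% of genes) and above them in 5 (13.2%, against 26.4%). At ZT14 alone, 9 members were at least 1.5-fold lower in HFD (7.35% of genes were) and Cfp was higher (11.8% of genes were). At ZT2, 8 were at least 1.5-fold lower (5.53% of genes) and C4b was higher (7.94%). C2, C6, C8a, C8b, F7 and F11 were past 1.5-fold at both times, and no other member was; 7.31% of genes were past it the same way at both. The C8b difference was -3.19 at ZT14 and -2.27 at ZT2, and that of C6 -2.14 and -1.14; with 1 array a group, whether these sizes differ was not tested.

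All 6 calls rested on few pools. With any 1 pool left out, the 6 kept their sign, and C8b ranged between -3.19 and -2.26. Without the HFD pool at ZT14 no member passed (C8b at adjusted p = 0.0656, C6 at 0.165), without the HFD pool at ZT2 only C8b did, without the RC pool at ZT14 only C6 and C8b did, and without the RC pool at ZT2 all but C2 (adjusted p = 0.0725). Leaving out either NOB pool kept all 6. With no filter on detection, which put 19057 genes in the adjustment, only C8a passed (adjusted p = 0.0422) and C8b did not (adjusted p = 0.0524). C6 moved to -1.19 without the RC pool at ZT14 and to -2.06 without that at ZT2.

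Of the 38 members, 19 had 2 or more detected probes, and in 16 of those all probes gave the same sign for HFD minus RC. The second probe of C6 gave -1.80 and that of F11 -1.01. Plg had 4 probes between -0.73 and -0.44, and Kng1, the kininogen that carries prekallikrein, had 3 between -0.64 and -0.16, the smallest from its brightest probe near the top of the scale. The signs differed for Masp1, Serpinc1 and Masp2. C8b, C8a, C2 and F7 each rested on 1 detected probe.

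**Figure D2:**
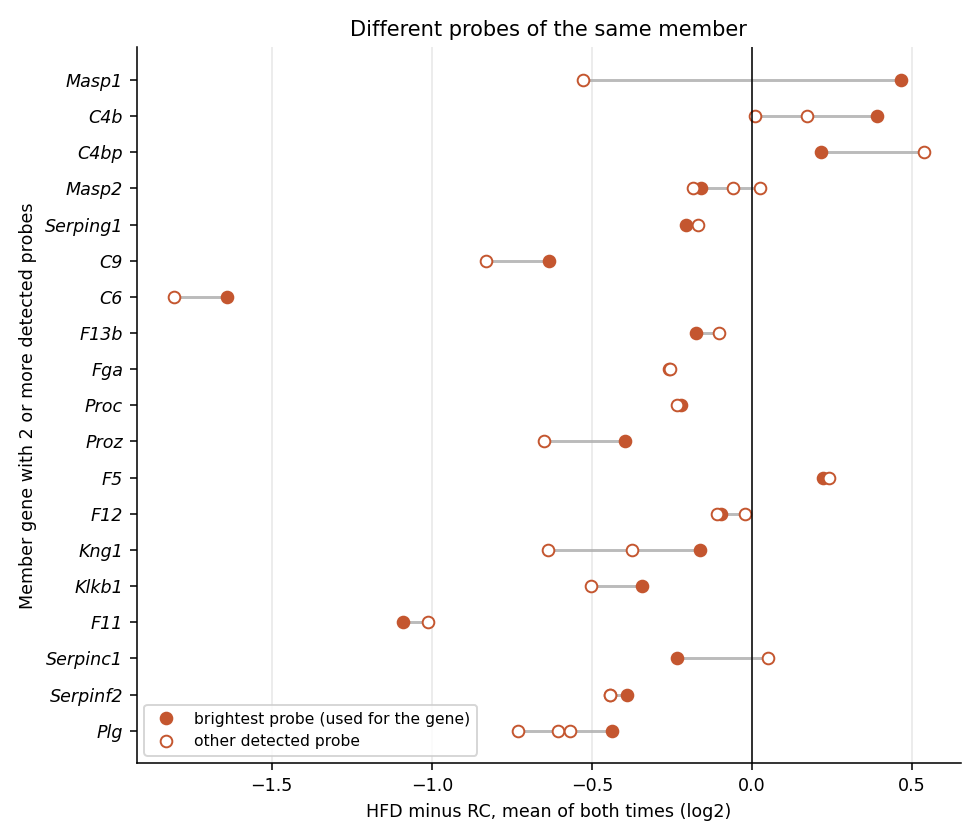
Log2 difference of HFD minus RC for every detected probe of the 19 members with 2 or more such probes, 1 row a gene; the filled point is the brightest probe, which stood for the gene. The 2 probes of C6 and the 2 of F11 lie close together, and those of Masp1 lie on opposite sides of 0.

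Nobiletin on the high-fat diet changed no member past the threshold relative to vehicle. In NOB minus HFD, limma called 0 of 38 members, and 2 at an unadjusted p under 0.05, where 0.164% of all genes were called (0.035% higher and 0.128% lower) and 8.77% had an unadjusted p under 0.05. C8b had the largest difference, 0.87 ± 0.25 (adjusted p = 0.383), with 0.86 at ZT14 and 0.88 at ZT2. The NOB pool at ZT14 and the HFD pool at ZT2 overlapped, both at 9.47. F7 was next at 0.47 ± 0.20 (adjusted p = 0.577), with both NOB pools above both HFD pools, followed by Masp1 at -0.36 ± 0.14 (adjusted p = 0.535; 0.20 for its second detected probe and -0.08 for the mean of its probes), C9 at -0.32 ± 0.24 (adjusted p = 0.806) and F11 at 0.30 ± 0.15 (adjusted p = 0.660). For C6 the difference was -0.17 ± 0.24 (adjusted p = 0.922), with the pools overlapping.

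Of the 38 members 10 lay below 0 in that comparison (26.3%, against 48.7% of genes), with a median of 0.09. The count was 16 without the HFD pool at ZT14 and 15 without the NOB pool at ZT14. Both NOB pools stood above both HFD pools in 9 members (17.8% of genes did) and below them in 2 (18.4%). At ZT14, C8b was at least 1.5-fold higher in NOB (2.36% of genes) and C9 at least 1.5-fold lower (3.83%), at -0.67 log2. At ZT2, C8b and F7 were higher (2.51%) and none was lower (4.15%). C8b was past 1.5-fold at both times, as were 1.86% of genes.

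Between NOB and RC, C8b and C6 were still lower. C8b lay -1.86 ± 0.25 from RC (3.63-fold lower, adjusted p = 0.0339) and C6 -1.81 ± 0.24 (3.51-fold lower, adjusted p = 0.0339). These 2 of 38 members (5.26%) stood against 0.467% of all genes called lower and 0.993% called in all. At an unadjusted p under 0.05 there were 9 members, against 15% of genes. C9 at -0.95 ± 0.24 (adjusted p = 0.134), C8a at -0.79 ± 0.14 (adjusted p = 0.0595), F11 at -0.79 ± 0.15 (adjusted p = 0.0727) and C2 at -0.70 ± 0.16 (adjusted p = 0.104) did not pass, nor did F7 at -0.56 ± 0.20 (adjusted p = 0.261). Neither C8b nor C6 passed without the NOB pool at ZT14 (both at adjusted p = 0.161), the NOB pool at ZT2 (0.0641 for C8b and 0.0788 for C6), the HFD pool at ZT14 (0.0630 and 0.0564) or the RC pool at ZT14 (0.0515 and 0.0680), and C8b did not pass without the HFD pool at ZT2 (0.0503). Without the filter on detection, or without time in the model, neither passed. This comparison shares its arrays with the other 2 arm comparisons, so the values are not independent of theirs. With median scaling the calls over all genes were 271 higher and 47 lower, in place of 45 higher and 40 lower, and the median of all genes moved to 0.22.

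In NOB minus RC, 28 members lay below 0 (73.7%, against 47.5% of genes), with a median of -0.15. With median scaling 16 did, against 19.5% of genes, and the members' median was above 0 at 0.05, where that of all genes was 0.22. Both NOB pools were below both RC pools in 16 (42.1%, against 19.2%) and above them in 6 (22.8% of genes). At ZT14, 7 members were at least 1.5-fold lower (6.13% of genes) and Cfp was higher by 1.14 (9.02%). At ZT2, 6 were lower (3.57%) and none was higher (3.94%). C2, C6, C8a, C8b and F11 were past 1.5-fold at both times, as were 3.33% of genes.

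Time of day changed no member past the threshold. In ZT14 minus ZT2 over the 3 arms, limma called 0 of 38 members and 3 at an unadjusted p under 0.05, where 0.0234% of all genes were called and 10.9% had an unadjusted p under 0.05. Of the members 30 lay below 0 (78.9%, against 51.6% of genes), with a median of -0.06. All 3 ZT14 pools lay below all 3 ZT2 pools for Cfi, Mbl1, Fgg and Klkb1 (6.62% of genes did), and above them for none (5.31%). C8b differed by -0.56 ± 0.20 (adjusted p = 0.416), C9 by -0.42 ± 0.20 (adjusted p = 0.491) and Klkb1 by -0.34 ± 0.13 (adjusted p = 0.432).

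Serpinf2, the inhibitor of plasmin, read 11.83 at ZT14 and 12.38 at ZT2 in NOB, 11.76 and 12.22 in HFD, and 12.23 and 12.52 in RC. It was lower at ZT14 in each arm, by a fitted -0.44 ± 0.12 (adjusted p = 0.285). Serpind1 read 10.13 and 10.53 in NOB, 9.96 and 10.32 in HFD, and 10.36 and 10.43 in RC, with -0.28 ± 0.13 (adjusted p = 0.484). Klkb1 read 9.69 and 10.01 in NOB, 9.42 and 10.01 in HFD, and 10.00 and 10.12 in RC, lower at ZT14 throughout.

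Within single arms, the log2 difference of C8b at ZT14 from ZT2 was -0.88 in NOB, -0.86 in HFD and 0.07 in RC; whether the arms differ in this was not tested. In NOB, C8b and C9 were at least 1.5-fold lower at ZT14 (3.31% of genes) and Cfp was higher (3.84%). In HFD, C6, C8b and Klkb1 were lower (2.37%) and none was higher (3.07%). In RC no member passed 1.5-fold either way, where 5.42% of genes were lower and 4.03% higher.

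**Figure D3:**
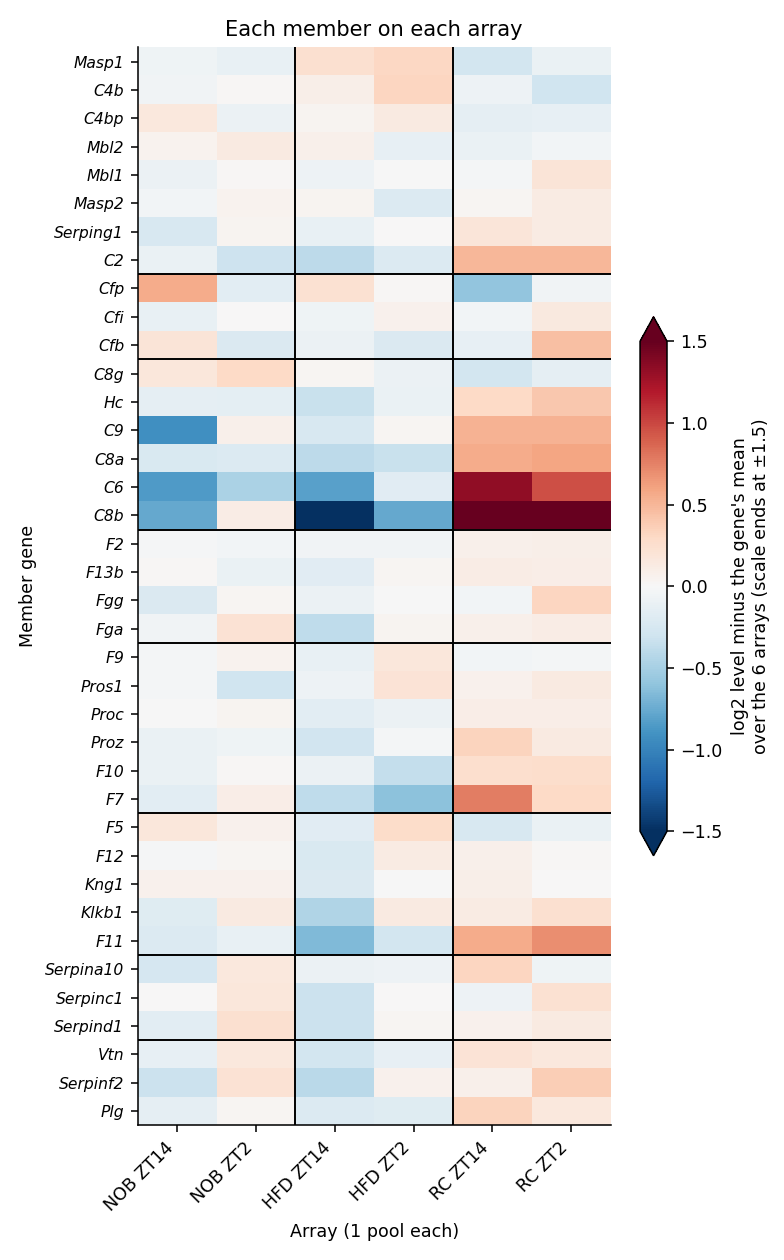
Heat map of the 38 measured members over the 6 arrays, ordered NOB, HFD, RC with ZT14 before ZT2; colour is the log2 level minus the gene's mean over the arrays, and the scale ends at 1.5 on either side. The strongest contrast is between the RC columns and the other 4 in C8b and C6.

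Other genes of these pathways were read from the same fit of HFD minus RC, in which 4.49% of all genes were called higher and 2.34% lower. Of the 8 genes for C1q and its proteases 5 were measured, and 1 rose: C1qb, a chain of C1q made largely by macrophages, by 0.83 ± 0.19 (adjusted p = 0.0493), beside 0.71 ± 0.21 for C1qc and 0.53 ± 0.20 for C1qa, which did not pass. Of 24 regulators and receptors 11 were measured, and Colec11, a collectin of the lectin route, rose by 0.81 ± 0.18 (adjusted p = 0.0475). Of 12 genes on the vessel-wall and platelet side 6 were measured, and Anxa5, a phospholipid-binding protein with anticoagulant activity, rose by 1.67 ± 0.14 (adjusted p = 0.00348); it read 10.51 and 10.60 in NOB, 11.54 and 11.79 in HFD, and 9.85 and 10.15 in RC at ZT14 and ZT2. Of 12 genes of plasminogen activation and protease inhibition 4 were measured, and Mug1 fell by 0.94 (adjusted p = 0.0279). None of 7 measured genes of the vitamin K cycle passed.

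Of 15 measured hepatocyte transcription factors and IL-6 signalling genes, 3 were lower in HFD (2.34% of all genes were) and none higher (4.49%), with a median of -0.32. These were Foxa1, a pioneer factor (-0.91 ± 0.16, adjusted p = 0.0244), and the cytokine feedback inhibitors Socs2 (-1.13 ± 0.25, adjusted p = 0.0468) and Socs3 (-1.19 ± 0.19, adjusted p = 0.0183). Of 24 other measured plasma proteins of hepatocytes, Fetub fell by 1.13 (adjusted p = 0.0130) and none rose, with a median of -0.05. Of 10 measured genes known to be higher in male mouse liver, 7 fell in HFD, with a median of -1.73 (2.34% of all genes fell). The largest differences were those of Hsd3b5 (-4.84), Cyp4a12b (-4.26) and Serpina4-ps1 (-3.14). Their probes were detected on 4, 5 and 5 arrays, so these sizes rest partly on values near the detection floor. In NOB relative to RC 6 of the 10 fell (0.467% of all genes did). The part of these genes in the members' differences was not tested.

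Some markers of other cell types also moved with diet, in the fit where 4.49% of all genes were called higher and 2.34% lower. Of 9 measured Kupffer cell and macrophage markers, of 11 listed, Gpnmb and Trem2, each detected on 4 arrays, rose in HFD. None of the other 7 passed. Cd163 lay at -0.75 ± 0.18 (adjusted p = 0.0566) and Clec4f at -0.07 ± 0.18 (adjusted p = 0.839). Above 0 lay Lyz2 at 1.04 ± 0.25 (adjusted p = 0.0607), Adgre1 at 0.62 ± 0.41, Vsig4 at 0.53 ± 0.23, Csf1r at 0.29 ± 0.26 and Marco at 0.11 ± 0.48. On a linear scale, the summed level of the list was 2881 to 3477 in NOB, 2754 to 3119 in HFD and 1766 to 2325 in RC. Of 8 stellate cell markers only Dcn passed, as higher. Des at -0.46 and Col3a1 at -0.05 lay below 0. Above 0 without passing lay Col1a1 at 0.86, Reln at 0.45, Hgf at 0.41, Lrat at 0.40 and Ecm1 at 0.04. Col1a1 and Col3a1 were each detected on only 2 arrays. The sum was 4814 to 4848 in NOB, 4843 to 5930 in HFD and 3598 to 3688 in RC, and Dcn, the brightest of the list, weighs most in it. Of 7 measured hepatocyte markers Cps1, a urea cycle enzyme, fell by 1.41 (adjusted p = 0.0114) and none rose. Below 0 without passing lay Serpina1a at -0.56, Alb at -0.10, Apoa1 at -0.06 and Ttr at -0.02. Cyp2e1 at 0.07 and Asgr1 at 0.16 lay above 0. The sums were 70010 to 76490 in NOB, 69500 to 69550 in HFD and 76020 to 76250 in RC. Ttr, Apoa1 and Cyp2e1, all near the top of the scale, weigh most in these sums. Pf4, the 1 platelet marker measured of 5, rose in HFD by 0.75 ± 0.15 (adjusted p = 0.0353). It was detected on only 3 arrays, with levels of 4.66 to 5.61, near the detection floor. Car3, of 3 measured adipocyte markers among 5 listed, rose in HFD by 0.90 ± 0.15 (adjusted p = 0.0201). The other 2 adipocyte markers did not pass and lay below 0, Adipoq at -0.95 ± 0.24 (adjusted p = 0.0628) and Lep at -0.16 ± 0.23 (adjusted p = 0.707). Of 3 measured exocrine pancreas markers, among 6 listed, Cela2a passed as lower in HFD (-0.89 ± 0.20, adjusted p = 0.0497). It was detected on only 2 arrays, so its difference lies near the detection floor. It read 5.56 and 5.10 in RC at ZT14 and ZT2, and 4.37 to 4.77 in the other arms. Cela1 at -0.71 ± 0.27 (adjusted p = 0.172) and Amy2a5 at 0.15 ± 0.16 (adjusted p = 0.632) did not pass. The part of these cell type markers in the members' differences was not tested.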

How the data were processed

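Liver RNA was measured on 6 arrays. The deposited non-normalized table gave, per the file headers, a bead intensity and, beside it, a detection p-value for each of 45281 probes on each array. The authors' processed matrix held a second intensity on a linear scale, with a median of 3.5 and a lowest value of -15.9 in every column. Its columns were matched to their arrays at r = 0.966 to 0.984 over 11487 probes, with the mean of each probe removed. Its scale is linear and its values are no ratios, so no direction is at issue; the amount subtracted and any centring stay unknown. The software was GenomeStudio, per the submitters' processing notes, which state no version.

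Intensities were corrected and normalized with neqc of limma 3.58.1 in R 4.3.3 (offset 16, quantile, log2). Probes needed a detection p-value under 0.01 on at least 2 arrays (14416 probes passed), and the brightest probe with a single symbol stood for a gene. Symbols came from the platform table: 34885 probes had 1 symbol, 18 had several and 10378 were not listed; 34807 matched the RefSeq table and none changed. One fit (lmFit, eBayes) over all 6 arrays held arm and time as additive terms, with 2 residual degrees of freedom, and gave 4 two-sided tests, each adjusted by the Benjamini-Hochberg method over 8561 genes at 0.05. Single arrays were compared without a test, at 1.5-fold. The fit was tested on simulated data. Precision is limited by the number of arrays.

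The members and gene lists were chosen with earlier results of these data known. Values on every array were given for members past the threshold in any test and for the 5 of largest difference in each comparison. C8g, Hc, C4b, Cfb, Cfp and F10 were added to these after their values were seen, and the rest are given by fitted values, counts and ranges. Alternatives were the processed matrix, median scaling, no background correction, an offset of 50, other filters, the mean of probes, other moderation, no second model term, and each array left out. Samples were grouped by their titles; the labels and headers name no slide, so no batch could be examined.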

Additional observations from a re-analysis of the deposited data

How the results depend on the processing

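C8b, C6, C8a, C2, F7 and F11 kept their sign for HFD minus RC in all 15 alternatives. Hc was also called lower with no background correction, with an offset of 50, and with trend and robust moderation. Masp1 was called higher with median scaling. The count of members called for HFD minus RC was 6, and 0 to 6 with 1 array left out; with no filter on detection, which put 19057 genes in the adjustment, it was 1 (C8a). For all genes the count of 584 became 1608 with median scaling, 91 with no filter, 301 with no second term in the model, and 31 to 712 with 1 array left out. For NOB minus HFD, 14 genes became 42 with median scaling, 1 with no filter, 9 with detection on all 6 arrays, 40 with trend and robust moderation, 9 with no second term, and 0 to 40 with 1 array left out. No member was called for it under any of these. For NOB minus RC, 85 genes became 318 with median scaling, 1 with no filter, 172 with trend and robust moderation, 12 with no second term, and 24 to 160 with 1 array left out. Its 2 members became 4 with no background correction, 4 with an offset of 50, 0 with no filter, 5 with trend and robust moderation, 0 with no second term, and 0 to 2 with 1 array left out. For ZT14 minus ZT2, 2 genes became 21 with median scaling, 5 with an offset of 50, 0 with no filter, 9 with detection on all 6 arrays, 1 with the mean of probes, 36 with trend and robust moderation, 0 with no second term, and 1 to 11 with 1 array left out.

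Counts of members past 1.5-fold between single arrays moved by more than 1.5 times, or to or from 0, in 4 cases: with median scaling NOB minus RC at ZT2 gave 3 in place of 6 and ZT14 minus ZT2 in RC gave 1 in place of 0, and with the mean of probes NOB minus HFD at ZT14 gave 1 in place of 2 and ZT14 minus ZT2 in HFD gave 1 in place of 3. No filter, detection on all 6 arrays and left-out arrays change the number of genes or samples. The cause of the other shifts was not tested. Through its time term the fit compared arms within each time. With 1 array for each arm and time, and no replicate numbers in the labels, no other pairing was possible. Pools hide the spread between mice.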
